A study of Homo sapiens with 6 samples.

Results

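Aminoacyl-tRNA synthetases are the enzymes that load each tRNA with its amino acid, and 36 of the 14987 genes in the deposited expression table encode one. They were taken from a fixed set of gene symbols, and all 36 were listed. By symbol, 20 are cytosolic and 16, whose symbols end in 2, are mitochondrial, and the account sets the 20 against the 16. The samples were HCT116 cells, an established human colorectal carcinoma line, from which messenger RNA was sequenced after 6 h without glucose or in control medium. In each medium there were 2 libraries of cells with YAP knocked down, 1 from the line shYAP1 and 1 from the line shYAP3, and 1 library of the line NC, labelled wild type. The study asked how far YAP, a transcriptional coactivator restrained by the Hippo kinases, shapes the expression induced by glucose deprivation. Each line gave 1 library per medium, 6 in all, and the labels do not speak of separate cultures. The p-values therefore measure the spread between libraries of different lines, which may be partly technical.

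Cytosolic synthetases charge the tRNAs used by cytosolic ribosomes, and mitochondrial synthetases, encoded in the nucleus and imported, charge the tRNAs of the mitochondrial genome. Glycine and lysine are served in both compartments by products of a single gene each, GARS and KARS, which count here as cytosolic by symbol. Several cytosolic synthetases sit together in a multisynthetase complex held by the AIMP scaffold proteins. Many cytosolic synthetase genes are known targets of ATF4, a stress-induced transcription factor that binds C/EBP-ATF response elements (CARE) in their promoters.

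The CARE letters TGATGNAAN, or NTTNCATCA on the other strand, which ATF4 is known to bind, were looked for in the RefSeq promoters of the members (GRCh38.p14, 250 bases before to 50 bases after each annotated start). Promoters were found for 30 of the 36 members, 39 promoters in all, and none was found for DARS, LARS, VARS, YARS, AARS2 and VARS2. The letters were present for 7 of 16 cytosolic genes (43.8%) and for 1 of 14 mitochondrial genes (7.14%), against 4.45% of all 27305 genes with a promoter and 2.86% of the 11593 such genes in the expression table. A match is only a run of letters and says nothing of binding in these cells. The 8 matches follow with 10 bases on either side, read 5′ to 3′ on the strand of the gene, with the matching letters in capitals.
AARS, chr16:70289676-70289704, minus strand: ttttctcgcaGTTGCATCAgccaagttag
CARS, chr11:3057408-3057436, minus strand: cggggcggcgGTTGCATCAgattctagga
GARS, chr7:30594834-30594862, plus strand: ttacgcggcgATTTCATCAtgctccgagc
IARS, chr9:92293693-92293721, minus strand: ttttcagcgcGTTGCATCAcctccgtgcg
MARS, chr12:57488053-57488081, plus strand: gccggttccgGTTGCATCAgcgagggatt
NARS, chr18:57621804-57621832, minus strand: ctacgctctcTGATGCAACgccggaatcg
TARS, chr5:33440956-33440984, plus strand: gcgcctttcgATTGCATCAgctggtccag
YARS2, chr12:32756076-32756104, minus strand: tccacactgcTGATGGAAAaattaagttt

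In CARS the match began 3 bases before the annotated start, and in MARS 5, in IARS 14 and in GARS 34 bases before it. The match began at base 2 from the start in TARS and at base 15 in NARS. In AARS and YARS2 it lay farther out, 188 and 197 bases before the start. The promoter of CARS, the synthetase with the largest fitted response to deprivation, is given with the match in capitals from 120 bases before the start through the first 30 bases transcribed.
CARS, chr11:3057394-3057543, minus strand: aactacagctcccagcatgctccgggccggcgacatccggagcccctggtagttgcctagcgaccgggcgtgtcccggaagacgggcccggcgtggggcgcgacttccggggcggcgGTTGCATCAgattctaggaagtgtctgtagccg

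The libraries held 16912634 to 19132907 listed reads after deprivation and 18512413 to 22161075 in control medium. The deposited values are normalized values per gene in which 1 read is worth 0.0406 to 0.0693, and every member had at least 67 reads in every library. YAP1, the target of the knockdown, stood at 20.3 and 35.7 in shYAP1 cells after deprivation and in control medium, at 18.2 and 38.2 in shYAP3 cells and at 154 and 188 in NC cells. Of 8 markers of colorectal epithelium 7 were listed, CDH17 not being among them, with summed values of 5338 to 6311 after deprivation and 3289 to 4561 in control medium. Of the markers of other cell types, 2 of 5 for fibroblasts summed to 3.05 to 6.12 after deprivation and 7.65 to 10.2 in control medium, 2 of 4 for leukocytes to 0 to 0.160 and 0.0454 to 0.176, and 1 of 3 for endothelium to 0.208 to 0.697 and 0.500 to 0.974.

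After glucose deprivation, of the 20 cytosolic synthetases 9 rose and 0 fell, and of the 16 mitochondrial synthetases 0 rose and 4 fell, by limma on log2(value + 1) with Benjamini-Hochberg adjustment over all genes and a threshold of 0.05. Over all 12263 genes tested 32.1% changed, 16.5% higher and 15.6% lower. The median log2 response, deprived minus control, was 0.47 for the cytosolic enzymes (range 0.06 to 1.17) and −0.13 for the mitochondrial enzymes (range −0.66 to 0.46), against 0.05 for all genes, so that the ranges of the compartments overlapped. All 20 cytosolic values were positive, but 8 were negative when each library was scaled to an equal total and 5 under quantile normalization. Scaling to equal totals moved the median of all genes to −0.24. Relative to that median 18 of 20 cytosolic enzymes stayed above and 9 of 16 mitochondrial enzymes below, with 7 cytosolic enzymes called higher and 6 mitochondrial enzymes called lower, EARS2 and IARS2 among them. Of all 12263 genes, that scaling called 749 higher and 3802 lower, so lower calls were common throughout. The contrast between the compartments is a description over chosen genes and was not tested.

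**Figure D1:**
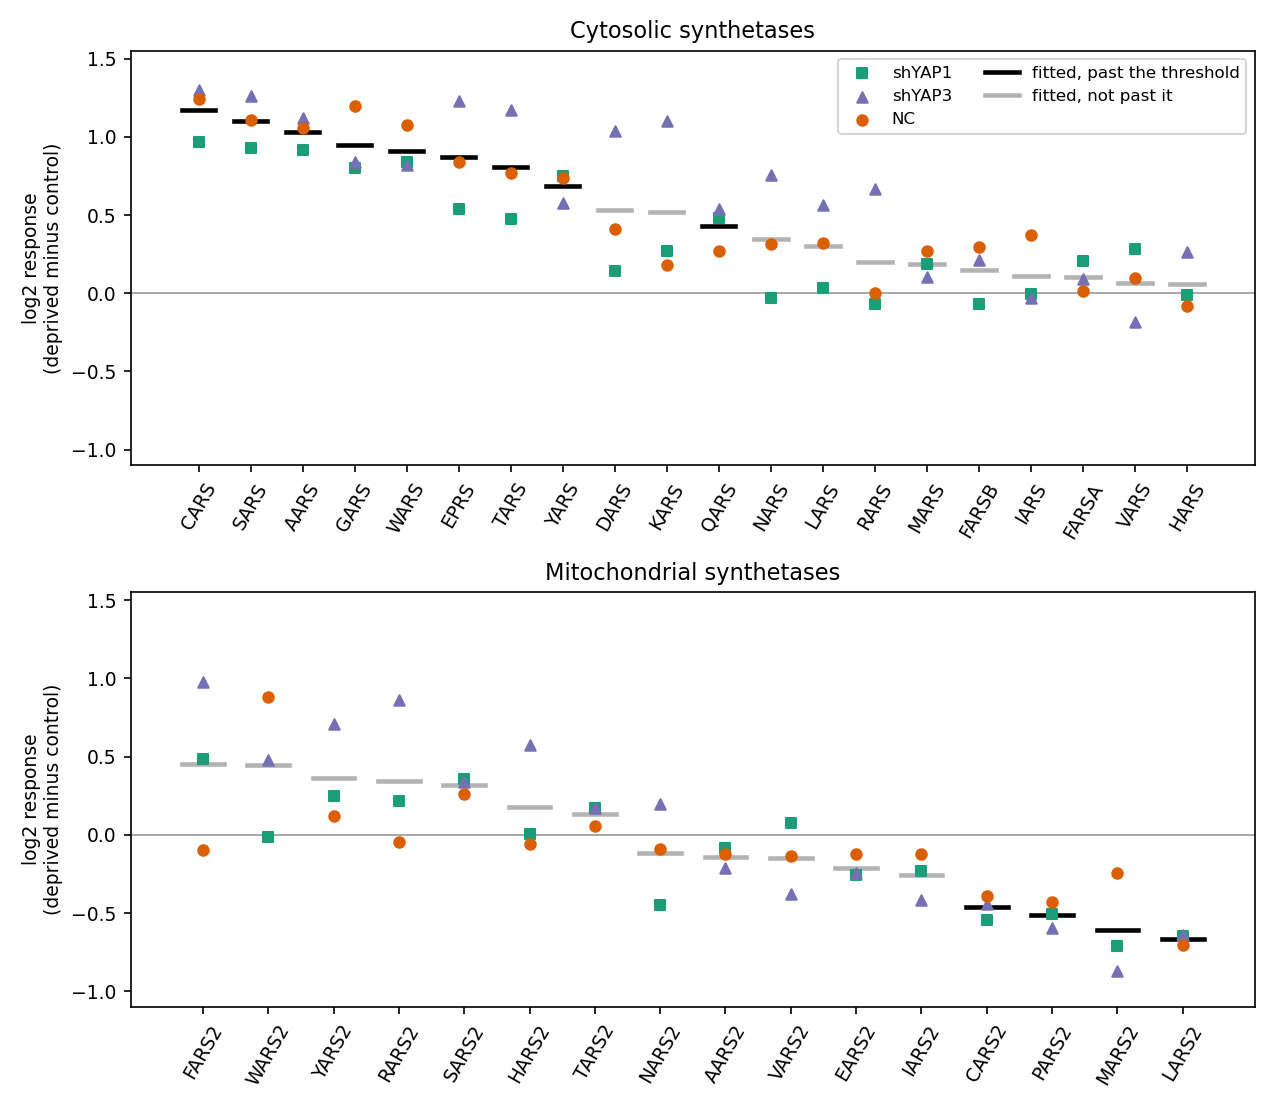
Log2 response (deprived minus control) of each cytosolic synthetase (top) and mitochondrial synthetase (bottom) in the lines shYAP1 (squares), shYAP3 (triangles) and NC (circles), with the fitted response over all 6 libraries as a bar that is black where the adjusted p was under 0.05. The fitted cytosolic responses run from 1.17 in CARS to 0.06 in HARS, and the mitochondrial ones from 0.46 in FARS2 to −0.66 in LARS2.

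Among the cytosolic enzymes outside the multisynthetase complex 7 of 12 rose, with a median log2 response of 0.75. CARS (ENSG00000110619), which charges cysteine tRNA, had values of 157, 169 and 178 in deprived shYAP1, shYAP3 and NC cells, against 80.2, 68.0 and 74.5 in the same lines in control medium. The lowest deprived library stood well above the highest control library, the means were 168 ± 10.2 and 74.2 ± 6.08 (SD, n = 3), and the log2 response was 1.17 (SE 0.13, limma adjusted p = 0.00093). SARS (ENSG00000031698), the serine enzyme, had 220.1, 255 and 233 in deprived shYAP1, shYAP3 and NC cells, against 115, 106 and 107 in control medium. AARS (ENSG00000090861), the alanine enzyme, had 385, 412 and 439 after deprivation, against 204, 189 and 210.1 in control medium. For SARS (log2 1.10, SE 0.13, limma adjusted p = 0.0012) and AARS (1.03, SE 0.13, adjusted p = 0.0014) the deprived libraries again all lay above the control libraries.

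GARS (ENSG00000106105), the single gene for both glycine enzymes, had 297, 262 and 363 in deprived shYAP1, shYAP3 and NC cells, against 169.9, 146 and 158 in control medium. WARS (ENSG00000140105), the tryptophan enzyme, had 142, 144 and 167 after deprivation, against 79.0, 81.2 and 79.0 in control medium. Both genes were highest in the deprived NC library, and neither had an overlap between media, with log2 responses of 0.94 (SE 0.15, limma adjusted p = 0.0031) and 0.91 (SE 0.13, adjusted p = 0.0021). TARS (ENSG00000113407), the threonine enzyme, had 354, 503 and 395 after deprivation, against 255, 223 and 231 in control medium. YARS (ENSG00000134684), the tyrosine enzyme, had 211, 194 and 249 after deprivation, against 125, 129 and 149 in control medium. Deprived and control values did not overlap in either, and the log2 responses were 0.81 for TARS (SE 0.16, limma adjusted p = 0.0083) and 0.69 for YARS (SE 0.13, adjusted p = 0.0059). TARS did not pass without the deprived NC (limma adjusted p = 0.0539), the control NC (0.0546) or the control shYAP3 library (0.0605), and YARS not without the control shYAP1 library (0.0515).

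**Figure D2:**
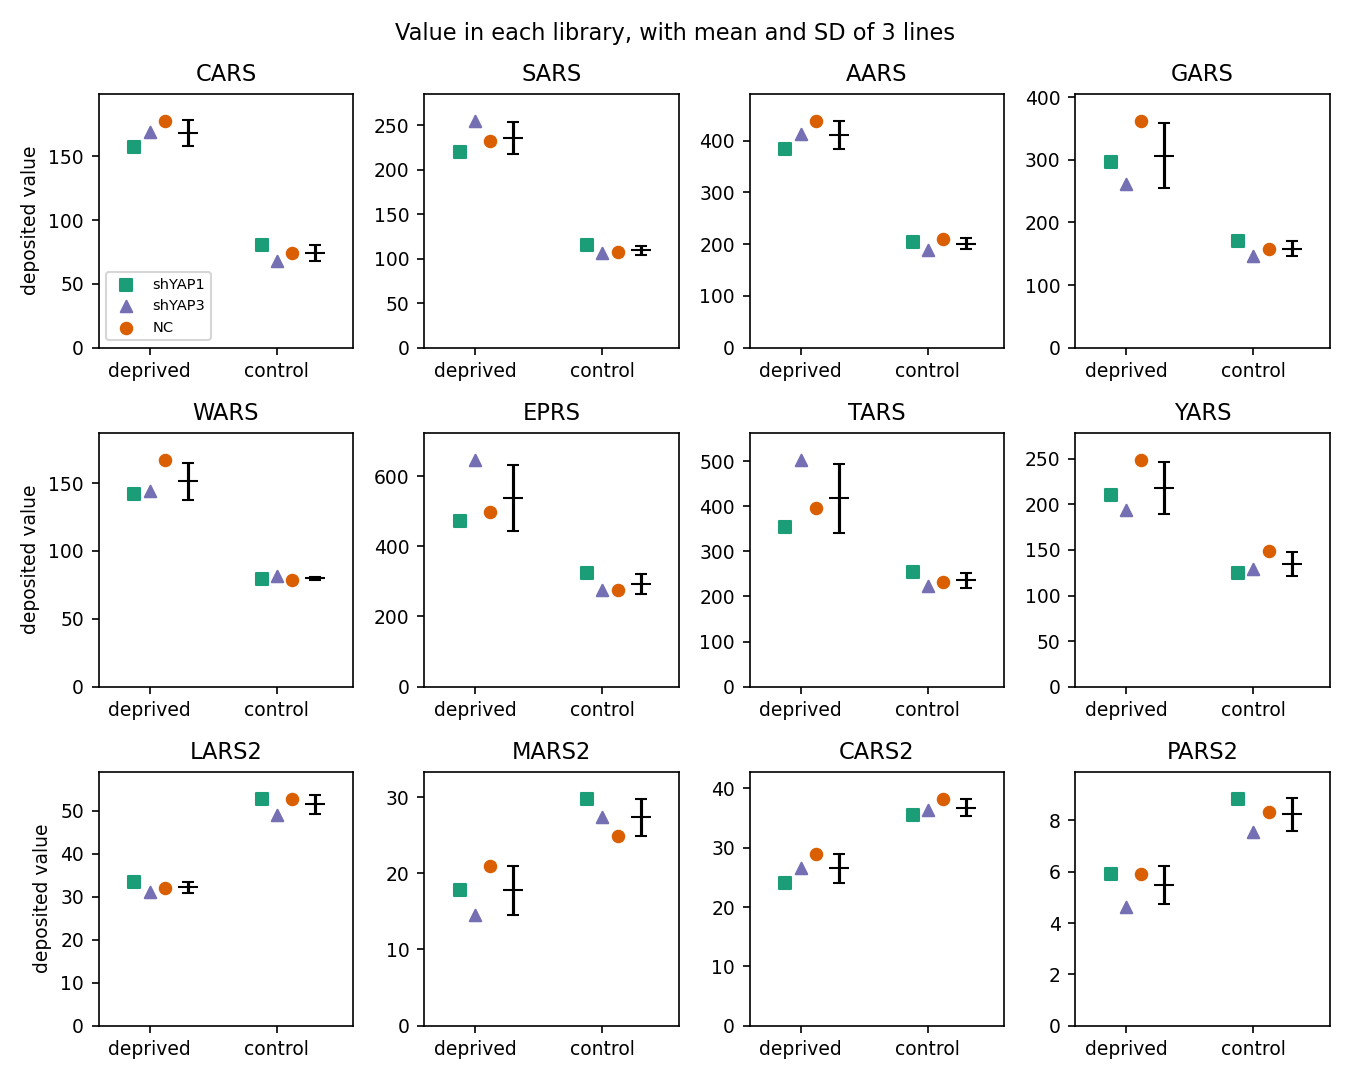
Deposited value of the 8 cytosolic synthetases with the smallest p and the 4 mitochondrial synthetases that fell, in each library of the deprived cells (left in each panel) and the control cells (right), with the mean and SD of 3 libraries beside the points. In every panel the 3 deprived libraries lie wholly on 1 side of the 3 control libraries, above them for the 8 cytosolic genes and below them for LARS2, MARS2, CARS2 and PARS2.

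Within the multisynthetase complex 2 of 8 enzymes rose, EPRS and QARS, and the median log2 response was 0.37. EPRS (ENSG00000136628), which charges both glutamate and proline tRNA, had 471, 647 and 497 in deprived shYAP1, shYAP3 and NC cells, against 324, 275 and 277 in control medium (log2 0.87, SE 0.16, limma adjusted p = 0.0061). QARS (ENSG00000172053), the glutamine enzyme, had 228, 227 and 204 after deprivation, against 163, 156 and 169 in control medium (log2 0.43, SE 0.13, limma adjusted p = 0.033). The QARS call was the least stable of the 9, and of the fits that left out 1 library it passed only without the deprived shYAP3 library, with adjusted p of 0.0534 without the deprived shYAP1, 0.0784 without the deprived NC, 0.080 without the control NC, 0.161 without the control shYAP1 and 0.19 without the control shYAP3 library. QARS did not pass under quantile normalization (0.175) or with equal totals (0.486) either, in both by limma adjusted p.

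KARS (ENSG00000065427), the single gene for both lysine enzymes, had 291, 463 and 249 in deprived shYAP1, shYAP3 and NC cells, against 242, 215 and 219.5 in control medium. The media did not overlap, yet the deprived shYAP3 library was far the highest, and the log2 response of 0.52 did not pass (limma adjusted p = 0.072). DARS, the aspartate enzyme, had 225, 383 and 233 after deprivation, against 204, 186 and 175 in control medium (log2 0.53, limma adjusted p = 0.063), and was likewise highest in the deprived shYAP3 library. Without the deprived shYAP1 library, and again without the deprived shYAP3 library, both genes passed (limma adjusted p = 0.0287 and 0.0431 for KARS, 0.010 and 0.0312 for DARS). LARS, the leucine enzyme, had 217, 285 and 245 after deprivation, against 213, 192 and 196 in control medium, with no overlap (log2 0.30, limma adjusted p = 0.14). The other enzymes of the complex, RARS for arginine, MARS for methionine and IARS for isoleucine, had log2 responses of 0.20, 0.19 and 0.11, and their deprived and control values overlapped. MARS had 189, 163 and 213 in deprived shYAP1, shYAP3 and NC cells, against 166, 152 and 176 in control medium.

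Outside the complex 5 cytosolic enzymes did not pass. NARS, the asparagine enzyme, had a log2 response of 0.35 (limma adjusted p = 0.14). FARSB and FARSA, the beta and alpha subunits of the phenylalanine enzyme, had 0.15 and 0.10, VARS for valine had 0.07, and HARS for histidine had 0.06. All 5 had overlapping values in deprived and control cells. In all, deprived values lay wholly above control values for 12 of 20 cytosolic enzymes, against 26.8% of all genes tested, and overlapped for the other 8. By catalytic fold, 5 of 10 class I and 4 of 10 class II cytosolic enzymes rose, against 16.5% of all genes tested. EPRS, which charges both glutamate and proline tRNA, was counted in class I alone, although its proline part belongs to class II. The classes were not tested against each other.

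Of the 7 cytosolic genes with CARE letters 4 rose, AARS, CARS, GARS and TARS, whereas IARS, MARS and NARS did not pass. Of the 9 matched cytosolic genes without the letters in these windows 4 rose as well, SARS, WARS, EPRS and QARS. The median log2 response was 0.81 for the 7 with the letters and 0.43 for the 9 without. YARS2, the mitochondrial gene with the letters, had a log2 response of 0.36 (limma adjusted p = 0.10).

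All 4 mitochondrial synthetases that fell did so in each of the 3 lines. LARS2 (ENSG00000011376), the mitochondrial leucine enzyme, had 33.4, 31.1 and 31.98 in deprived shYAP1, shYAP3 and NC cells, against 52.8, 48.9 and 52.7 in control medium. The means were 32.1 ± 1.18 and 51.5 ± 2.23 (SD, n = 3), and the log2 response was −0.66 (SE 0.13, limma adjusted p = 0.0071). MARS2 (ENSG00000247626), the methionine enzyme, had 17.8, 14.5 and 20.9 after deprivation, against 29.8, 27.4 and 24.9 in control medium (log2 −0.61, SE 0.17, limma adjusted p = 0.024). PARS2 (ENSG00000162396), the proline enzyme, had 5.92, 4.64 and 5.91 after deprivation, against 8.84, 7.54 and 8.31 in control medium (log2 −0.51, SE 0.16, limma adjusted p = 0.036). CARS2 (ENSG00000134905), the cysteine enzyme, had 24.05, 26.6 and 28.9 after deprivation, against 35.5, 36.4 and 38.3 in control medium (log2 −0.46, SE 0.13, limma adjusted p = 0.027). In none of these genes did a deprived library reach a control library.

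Each of these falls lost its call when certain libraries were left out. The count of 4 became 0 without the control shYAP1 library, 1 without the control shYAP3 library (LARS2), and 1 without either NC library (MARS2), which leaves the shYAP lines alone. Calls over all genes shrank too, from 1918 lower in the main fit. They came to 587 lower without the control shYAP1 library and 613 without the control shYAP3 library. Without the deprived NC library 724 were lower, and without the control NC library 723. Without the control shYAP1 library the adjusted p was 0.062 for LARS2, 0.138 for MARS2 and CARS2, and 0.185 for PARS2. PARS2 also missed the threshold under quantile normalization (limma adjusted p = 0.0525) and without the filter on low values (0.0584). The log2 response of LARS2 stayed between −0.70 and −0.64 over the 6 fits that left out a library.

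SARS2, the serine enzyme, had 34.3, 33.2 and 37.2 in deprived shYAP1, shYAP3 and NC cells, against 26.6, 26.1 and 30.9 in control medium. It was the 1 mitochondrial enzyme whose deprived values lay wholly above its control values, by a log2 response of 0.32 that did not pass (limma adjusted p = 0.084), though it passed without the deprived shYAP3 library (adjusted p = 0.0249) and with trends in GC content and length removed. In the annotation 46.2% of the SARS2 exon bases also belong to AC011455.2, an overlapping gene on the same strand. WARS2, the tryptophan enzyme, had 9.53, 11.2 and 15.8 after deprivation, against 9.62, 7.77 and 8.09 in control medium. Its value was highest in deprived NC cells and about equal between media in shYAP1 cells (log2 response −0.012), and the log2 response of 0.45 did not pass (limma adjusted p = 0.086) except without the deprived shYAP1 library (adjusted p = 0.0317).

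FARS2, YARS2, RARS2 and HARS2, the phenylalanine, tyrosine, arginine and histidine enzymes, had log2 responses of 0.46, 0.36, 0.34 and 0.18, each highest in shYAP3 cells. YARS2 had 44.4, 57.4 and 34.8 in deprived shYAP1, shYAP3 and NC cells, against 37.2, 34.7 and 31.9 in control medium. TARS2, the threonine enzyme, had 13.7, 15.4 and 14.5 after deprivation, against 12.05, 13.5 and 13.9 in control medium. Neither YARS2 nor TARS2 was clear of overlap between media.

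AARS2, the alanine enzyme, had 15.7, 13.4 and 17.2 in deprived shYAP1, shYAP3 and NC cells, against 16.8, 15.7 and 18.9 in control medium, a log2 response of −0.14. EARS2, the glutamate enzyme, had 58.0, 57.9 and 63.8 after deprivation, against 69.7, 68.8 and 69.7 in control medium. The EARS2 values did not overlap between media, and its log2 response of −0.21 did not pass (limma adjusted p = 0.22). IARS2, the isoleucine enzyme, also had no overlap, with a log2 response of −0.26. NARS2 and VARS2, the asparagine and valine enzymes, had −0.12 and −0.15 with overlapping values. In all, deprived values lay wholly below control values for 6 of 16 mitochondrial enzymes, against 23.8% of all genes tested. By catalytic fold, 3 of 9 class I and 1 of 7 class II mitochondrial enzymes fell, against 15.6% of all genes tested. The class II share was near that over all genes. These counts are small, and the difference between the classes was not tested.

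Set side by side by amino acid, 17 pairs could be formed over the 16 mitochondrial enzymes, EPRS standing against both EARS2 and PARS2 and both phenylalanine subunits against FARS2. The fitted cytosolic response was the larger in 13 pairs, with a median difference of 0.46 log2 units, and in 12 pairs it was the larger in each of the 3 lines. The widest gaps were cysteine (1.63), proline (1.38) and alanine (1.17). In leucine and methionine, with gaps of 0.97 and 0.79, the cytosolic enzymes LARS and MARS did not pass and the mitochondrial enzymes LARS2 and MARS2 fell. For both phenylalanine subunits, arginine and histidine the mitochondrial value was the larger, by 0.35, 0.31, 0.15 and 0.12 log2 units, and only for histidine in each of the 3 lines. No pair was tested.

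**Figure D3:**
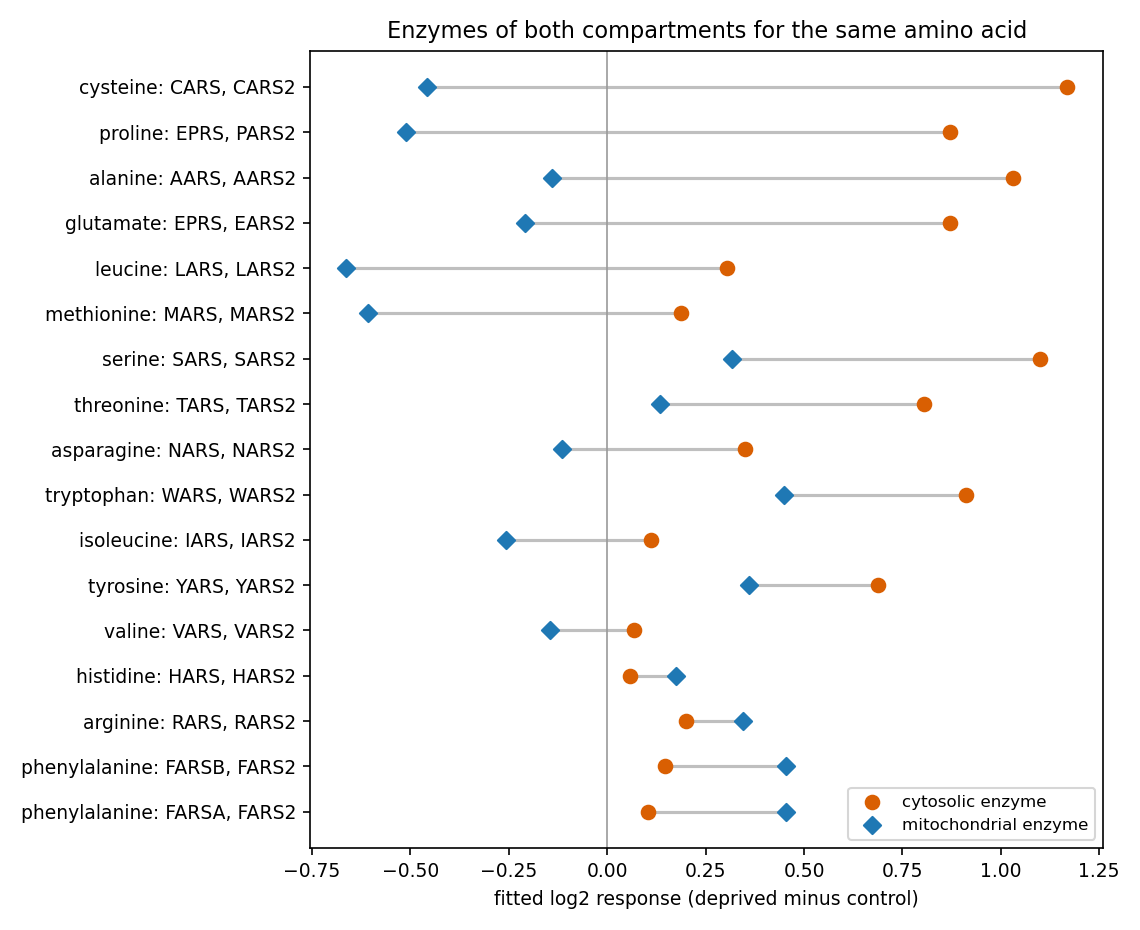
Fitted log2 response (deprived minus control) of the cytosolic enzyme (circle) and the mitochondrial enzyme (diamond) for the same amino acid, 17 pairs in order of the gap between them. Cysteine has the widest gap, with CARS at 1.17 and CARS2 at −0.46, and in the 4 lowest pairs the mitochondrial enzyme lies to the right.

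Per kilobase of transcript the cytosolic enzymes were the more abundant in all 17 pairs, with a median ratio of 5.47 in control medium. The median level per kilobase in control medium was 57.7 for the cytosolic and 11.4 for the mitochondrial enzymes, against 8.09 for all genes tested. KARS had the highest cytosolic level per kilobase in control medium, 112, and WARS the lowest, 25.8. IARS2 stood at 53.3, the highest of the mitochondrial enzymes, and WARS2 at 3.03, the lowest. The ratio of summed levels per kilobase, cytosolic over mitochondrial, was 7.39, 8.15 and 7.81 in deprived shYAP1, shYAP3 and NC cells, against 5.23, 5.15 and 5.06 in control medium, so the media did not overlap. As a share of all listed values, the cytosolic enzymes took 0.443%, 0.474% and 0.504% in deprived shYAP1, shYAP3 and NC cells, against 0.404%, 0.396% and 0.395% in control medium. The mitochondrial enzymes took 0.0562%, 0.0522% and 0.0596% after deprivation, against 0.0745%, 0.0738% and 0.0743% in control medium. These shares and ratios do not depend on how a library was scaled, and in every line the cytosolic share was higher and the mitochondrial share lower after deprivation. More RNA of these genes per cell and less RNA of other genes cannot be told apart in such shares.

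**Figure D4:**
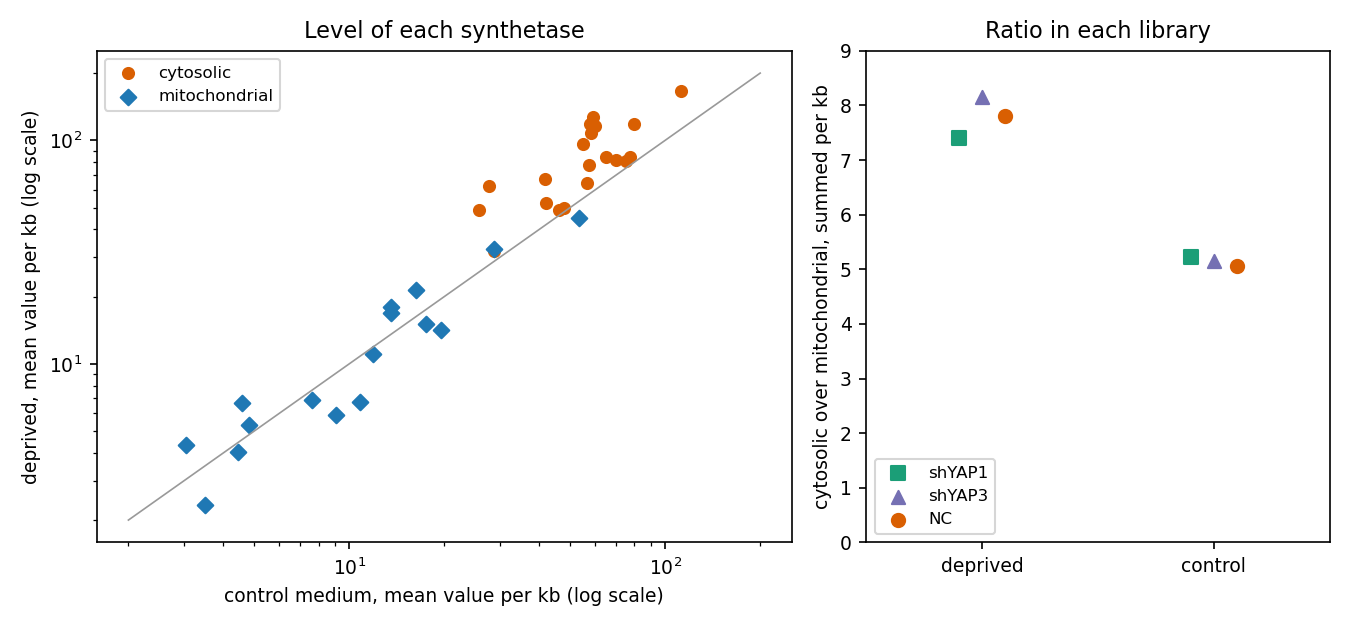
Left, mean level per kilobase of transcript of each synthetase after deprivation against its level in control medium (both log scales, 3 libraries each, line of equality in grey). Right, cytosolic over mitochondrial summed level per kilobase in each library, which was 7.39 to 8.15 after deprivation and 5.06 to 5.23 in control medium.

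Knockdown of YAP moved none of the 36 synthetases past the threshold. The fit over both media called 0 members and 0.00815% of all genes, which is YAP1 alone, and 0 members had an unadjusted p under 0.05 by limma, against 898 of 12263 genes; edgeR and DESeq2 likewise called 0 members. The members with the smallest p were YARS2 (log2 0.34, shYAP minus NC), YARS (−0.27), IARS (−0.29) and RARS (0.34), each with an adjusted p of 0.58. The 4 shYAP libraries lay wholly above both NC libraries for RARS, against 4.83% of genes tested, and wholly below them for IARS and AARS2, against 6.04%.

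The response itself was compared between shYAP and NC cells, and 0 members and 0% of all genes passed. No member had an unadjusted p under 0.05 by limma, against 111 of all genes, and edgeR and DESeq2 called 0 members. This comparison has 1 NC library per medium and takes its spread from the shYAP lines alone. FARS2 had the smallest p, with log2 responses of 0.49 in shYAP1, 0.97 in shYAP3 and −0.09 in NC cells, a difference of 0.83 (SE 0.38, limma adjusted p = 1). GARS, which responded most in NC cells at 1.19, against 0.80 in shYAP1 and 0.84 in shYAP3, had a difference of −0.37 (SE 0.32). Without the deprived shYAP1 library 8 members passed, KARS, DARS, RARS, FARS2, RARS2, YARS2 and HARS2 higher and MARS2 lower in shYAP cells, together with 1533 higher and 1202 lower genes in all. That fit has shYAP3 as the only deprived shYAP library, and the lone library is assumed to vary like the control shYAP libraries.

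The 3 lines agreed on the order of the compartments and differed in size. The median log2 response of the cytosolic enzymes was 0.28 in shYAP1, 0.71 in shYAP3 and 0.34 in NC cells, and that of the mitochondrial enzymes −0.05, −0.02 and −0.11. All genes tested had medians of 0.03, 0.04 and 0.02 in shYAP1, shYAP3 and NC cells. The cytosolic minus mitochondrial difference was therefore 0.32 in shYAP1, 0.73 in shYAP3 and 0.45 in NC cells. In the fit over all lines it was 0.60, and it was 0.34 without the deprived shYAP3 library, 0.37 under quantile normalization and 0.32 with GC and length trends removed.

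The response of the shYAP3 line stood apart along transcript composition, and its synthetases did so too. This response uses both shYAP3 libraries and does not by itself show which of them departed. KARS, with the most positive departure, had 463 in deprived shYAP3, against 291 in shYAP1 and 249 in NC cells. In control medium KARS had 215 in shYAP3, against 242 and 219.5. MARS2, with the most negative, had 14.5 in deprived shYAP3, against 17.8 and 20.9, and 27.4 in control medium, against 29.8 and 24.9. Which library departed was not tested. The shYAP3 response minus the mean of the shYAP1 and NC responses was most positive for KARS (0.88), FARS2 (0.78), RARS2 (0.78), DARS (0.76), RARS (0.70) and NARS (0.61), and most negative for MARS2 (−0.40), VARS (−0.37) and VARS2 (−0.35). Across the 36 members this departure had a correlation of −0.49 with GC content and −0.39 with log2 transcript length, and across 12107 genes −0.36 and −0.41, with all points taken from the same 6 libraries. With the trends in GC content and length taken out of every library, an alternative chosen after seeing the data, 11 cytosolic enzymes rose with a median of 0.37, and 1 mitochondrial enzyme rose (SARS2) and 5 fell with a median of 0.05, positive rather than negative. Calls over all genes were more numerous in that fit as well, 2422 higher and 2093 lower, against 2018 and 1918 in the main fit. The part of GC content and length in the synthetase responses was not tested beyond this.

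**Figure D5:**
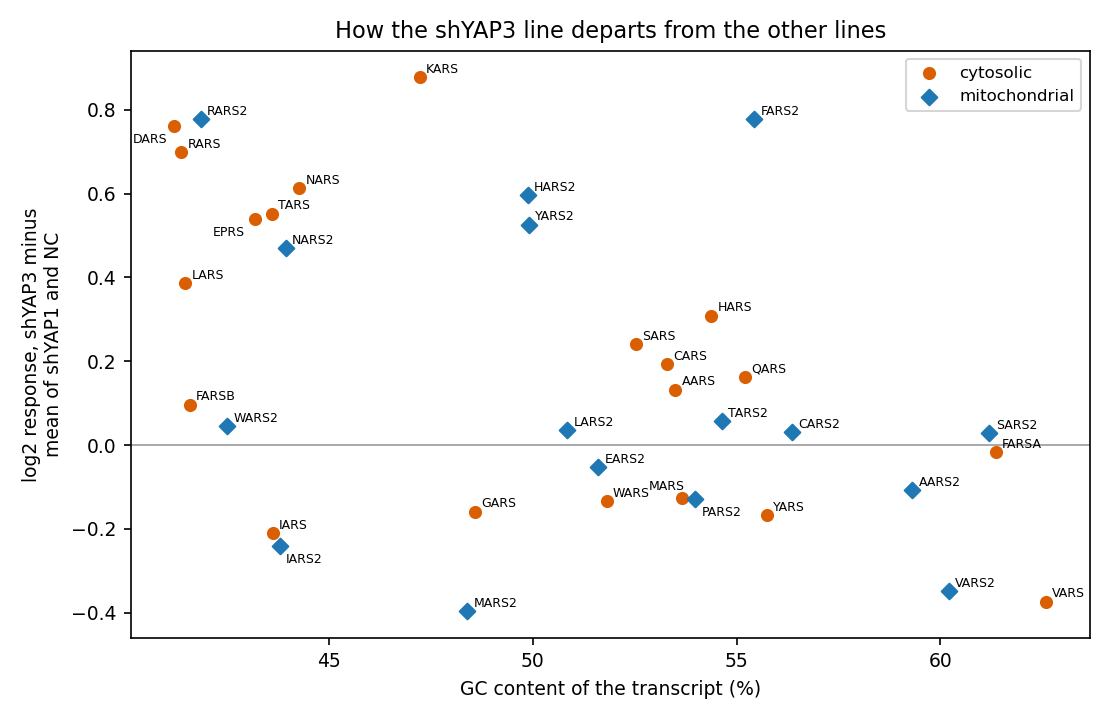
Log2 response of each synthetase in shYAP3 cells minus the mean of its responses in shYAP1 and NC cells, against the GC content of its transcript in percent, for cytosolic (circles) and mitochondrial (diamonds) enzymes. KARS (0.88), DARS (0.76) and RARS (0.70) lie high, VARS (−0.37) and MARS2 (−0.40) lie low, and the correlation over the 36 genes is −0.49.

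Of the 36 members, 20 share some exon sequence with another annotated gene and 11 have a pseudogene named for them. Only SARS2 (46.2%), VARS2 (21.99%, with GTF2H4) and HARS2 (11.7%, with HARS) share more than 10% of their exon bases with 1 other gene. HARS and HARS2 lie head to head, their annotated starts 85 bases apart on opposite strands, and neither passed. MARS shares 355 exon bases (5.05%) with DDIT3 on the opposite strand, a stress transcription factor gene whose value was 212, 565 and 284 in deprived shYAP1, shYAP3 and NC cells, against 6.78, 4.77 and 5.41 in control medium. Whether reads were counted by strand is not given in the sources used here, so reads of MARS and DDIT3 in these bases cannot be told apart.

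Genes that work beside the synthetases were counted in the same fit, in which 16.5% of all genes rose and 15.6% fell. Of 18 partners, the complex scaffolds, tRNA editing and transamidation factors, peptidyl-tRNA hydrolases and the elongation factor that accepts charged tRNA, 4 rose and 0 fell, with a median log2 response of 0.44. The median was 0.20 in shYAP1, 0.72 in shYAP3 and 0.25 in NC cells, so the shYAP3 line had the highest value here too. The 4 were EEF1A1 (0.87), the elongation factor, PTRHD1 (0.79), a peptidyl-tRNA hydrolase domain protein, AIMP1 (0.73), a scaffold of the complex, and AARSD1 (0.55), an alanyl-tRNA editing protein. AIMP1 had 79.5, 154 and 71.7 in deprived shYAP1, shYAP3 and NC cells, against 66.3, 58.2 and 49.4 in control medium. Without the deprived shYAP3 library 7 partners rose and 1 fell (MTFMT) with a median of 0.26, and without the deprived shYAP1 library 9 rose. With either NC library left out only PTRHD1 rose, and with either control shYAP library left out 0 partners did. Higher calls over all genes swung likewise, at 2874 without the deprived shYAP3 library and 2623 without the deprived shYAP1 library. They numbered 692 without the deprived NC and 689 without the control NC library. Without the control shYAP1 library they numbered 563, and without the control shYAP3 library 473. MTFMT, which formylates the mitochondrial initiator tRNA, had −0.38 (limma adjusted p = 0.072), and TARSL2, a threonyl-tRNA synthetase-like gene that also held a negative value, had −0.18.

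Of 26 genes of tRNA maturation and export 3 rose and 2 fell, smaller shares than those over all genes (16.5% and 15.6%). Their median log2 response of 0.12 was −0.03 in shYAP1, 0.36 in shYAP3 and −0.09 in NC cells, and −0.057 in the fit without the deprived shYAP3 library, where 5 rose and 7 fell. Over all genes that fit called 2874 higher and 2432 lower. RPP21 (0.71) and RPP40 (0.64), subunits of ribonuclease P, and XPOT (0.41), the tRNA exporter, rose, whereas RPP25 (−1.15), another ribonuclease P subunit, and NOL9 (−0.79), a polynucleotide kinase of ribosomal RNA processing, fell. RPP25 fell in all 6 fits that left out a library, whereas without either control shYAP library it was the only gene of the list to pass, without either NC library RPP21 alone rose, and without the deprived shYAP1 library 5 genes rose.

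Of 19 mitochondrial translation factors 3 rose and 0 fell, a share of higher genes near that over all genes (16.5%). Their median log2 response of 0.32 was 0.05 in shYAP1, 0.61 in shYAP3 and 0.16 in NC cells. RMND1 (0.77), ICT1 (0.67), a peptidyl-tRNA hydrolase of the mitochondrial ribosome, and MRRF (0.64), the mitochondrial ribosome recycling factor, rose. Without the deprived shYAP3 library 5 rose and 1 fell (TFB2M) with a median of 0.18, without the deprived shYAP1 library 8 rose, without the control shYAP1 library 0 did, and without the control shYAP3 library or either NC library RMND1 alone did. Over all genes the fits without 1 library called from 473 (control shYAP3 left out) to 2874 (deprived shYAP3 left out) higher. TFB2M (−0.40) and POLRMT (−0.22), both of mitochondrial transcription, and GUF1 (−0.25), a mitochondrial elongation factor homologue, did not pass.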

How the data were processed

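Per the labels' protocols, mRNA was selected with oligo-dT beads, fragmented and made into Illumina libraries. The tools Bowtie2 and BWA and the build hg19 stand in the submitters' processing notes, with no role given; the counter, annotation and strand setting are not given in the sources used here. The authors deposited a normalized signal for each gene that is not divided by length, and their scaling is not given. Whole reads were recovered from it, since all values (100%) of a library came to whole numbers, within 0.01, after division by the worth of 1 read.

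The main test was limma 3.58.1 in R 4.3.3, with its trend of variance on mean, on log2(value + 1), a scale that understates changes of low genes. It took the 12263 genes that reached a value of 1 in 2 or more libraries. Additive models of medium and genotype gave the response and the knockdown, and a mean per genotype and medium gave the difference of the response. The NC line was assumed to vary like the shYAP lines. edgeR 4.0.16 and DESeq2 1.42.0 on recovered reads were alternatives. On simulated data with known changes the scripts were checked first. Same-named libraries come from the same line. Their deviations from the medium means correlated at 0.010 (shYAP1), 0.33 (shYAP3) and 0.46 (NC) over 12263 genes. Between different lines the correlations ran from −0.49 to 0.26, so the same-line value of shYAP1 was not the larger. With the line as a block 10 cytosolic enzymes rose and 4 mitochondrial enzymes fell.

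Levels per kilobase used the longest principal transcript of GENCODE on GRCh38, and promoters came from RefSeq, another build than hg19. Symbols are those of the row identifiers, many since renamed with a final 1 (CARS is now CARS1). A second symbol column gives microRNA names for MARS, QARS and TARS2. Values in all libraries are given for the 8 cytosolic and 6 mitochondrial genes with the smallest p, the enzyme of the same amino acid in the other compartment, GARS and KARS, and of each other list the 3 smallest p in each direction are named, except that 1 gene is not reported here; QARS, DARS and genes named for shYAP3 or overlaps were added after seeing values. The members and lists were chosen with earlier results of these data known. For the lists of other genes, the counts without 1 library were added after seeing the data.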

Additional observations from a re-analysis of the deposited data

Results flagged for a closer look

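In 4 synthetases the response of NC cells had the opposite sign to the response of both shYAP lines, as it did in 10.5% of all genes tested. IARS had log2 responses of −0.0056 in shYAP1 and −0.027 in shYAP3 cells, against 0.37 in NC cells. FARS2 had 0.49 and 0.97 in shYAP1 and shYAP3 cells, against −0.095 in NC cells. RARS2 had 0.22 and 0.86, against −0.048 in NC cells. HARS2 had 0.0077 and 0.57, against −0.056 in NC cells. The difference of the response (shYAP minus NC) was −0.39 for IARS, 0.83 for FARS2, 0.59 for RARS2 and 0.35 for HARS2, and none of the 4 passed, each with an adjusted p of 1 by limma. FARS2, RARS2 and HARS2 were each highest in the deprived shYAP3 library. The response of the shYAP3 line stood apart by transcript composition, and the part of that line in these differences was not tested.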

How the results depend on the processing

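Of the 13 synthetases called in the response, AARS, CARS, EPRS, GARS, SARS and WARS were called in all 6 fits without 1 library and in all 12 other alternatives. No called synthetase changed sign in any alternative. The count of cytosolic enzymes that rose was 7 to 12 over the fits without 1 library, 9 in edgeR and 11 in DESeq2, and none fell in any of them. For mitochondrial enzymes the count that rose was 0 to 1 over those fits (WARS2 without the deprived shYAP1, SARS2 without the deprived shYAP3 library) and 1 with GC and length trends removed, and the count that fell was 0 to 4, 1 with cell means (LARS2) and 1 in the shYAP lines alone (MARS2). Using the line as a replicate block added DARS (adjusted p = 0.0391 by limma) to the calls and changed no other call of a synthetase. The difference of the medians was 0.34 to 0.69 over the fits without 1 library, 0.37 under quantile normalization and 0.32 with GC and length trends removed. Members called in the difference of the response numbered 0 to 8 over the fits without 1 library, and none were called in the knockdown in those fits. Over all genes the response fits without 1 library called 473 to 2874 genes higher and 587 to 2432 lower. The cause of these changes was not tested. Calls were also lost, by limma adjusted p, with equal totals by YARS (0.0586) and QARS (0.486), under quantile normalization by QARS (0.175) and PARS2 (0.0525), without the filter by PARS2 (0.0584), with cell means by QARS (0.105), CARS2 (0.089), MARS2 (0.0791) and PARS2 (0.107), and in the shYAP lines alone by QARS (0.0798), TARS (0.0544), CARS2 (0.0943), LARS2 (0.0542) and PARS2 (0.11). In turn, 10 synthetases not called in the response were called in at least 1 alternative. Log2 responses that changed sign, none of them called, were under quantile normalization FARSA −0.063, FARSB −0.018, HARS −0.11, IARS −0.21 and VARS −0.13. With equal totals they were FARSA −0.20, FARSB −0.16, HARS −0.25, IARS −0.20, LARS −0.0023, MARS −0.12, RARS −0.11, VARS −0.24, HARS2 −0.13 and TARS2 −0.15. With GC and length trends removed they were FARSB −0.039, RARS −0.16, RARS2 −0.051, AARS2 0.11 and VARS2 0.13, and in the shYAP lines alone IARS −0.017. Over the fits without 1 library HARS ranged from −0.010 to 0.13, IARS from −0.017 to 0.18, VARS from −0.050 to 0.19 and NARS2 from −0.24 to 0.013. The lowest count of a member in any library was 67 reads, for PARS2, and low counts limit that gene most.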
